A study of Mus musculus with 2 samples.

Results

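Forkhead transcription factor genes were described in 2 samples of cartilage from wild-type C57BL/6J mouse embryos at E17.5. One sample was enriched with columnar and hypertrophic chondrocytes and the other with round chondrocytes, and for each the RNA of 3 portions of cartilage plate was mixed and hybridised to 1 Affymetrix Mouse Genome 430 2.0 array. Both samples are labelled wild type and no treatment is named. Genes were taken as members where a probe set named a single gene whose symbol was Fox followed by a class letter from a to s and a number. This gave 37 genes with 82 probe sets, of 18194 genes named on the array. Since each group had a single array, nothing was tested, and a difference of 2-fold or more served as a fixed rule of size. The precision is limited by the number of arrays. The spread between probe sets of the same gene, an SD of 0.37 on the log2 scale over 4817 genes, is a technical spread and not one between animals.

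Forkhead proteins share a winged helix DNA-binding domain and are grouped into lettered classes. FOXO proteins are held in the cytoplasm when insulin and IGF signals activate AKT, and enter the nucleus when those signals fall. FOXA2 and FOXA3 promote chondrocyte hypertrophy in mice, FOXC1 takes part in endochondral bone formation, and FOXP proteins act mainly as repressors and can restrain RUNX2 during hypertrophy.

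Signals were on the linear scale of MAS5, the older Affymetrix summary of a probe set. A floor of 101 was set at the 95th percentile of 83 probe sets for olfactory, vomeronasal and taste receptors over both arrays, and signals below it were raised to it before log2. The brightest probe set stood for a gene. Where a gene was above the floor on 1 array alone, the difference is a bound. Of the 37 forkhead genes, 21 (56.8%) passed the floor on 1 or both arrays, against 64.2% of all named genes. Of these, 16 were above it on both arrays, 5 on the round array alone and 0 on the columnar/hypertrophic array alone. The same split is not given for all named genes, so 5 against 0 is not shown to be particular to forkhead genes. The median signal of the whole array was higher for round cells, at 128, than for columnar and hypertrophic cells, at 105.

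The identity of the samples was checked against marker lists. All 11 hypertrophic zone markers were higher by 2-fold or more with columnar and hypertrophic cells, with a median log2 difference of 3.91. Of 10 joint surface and round zone markers, 9 were lower by 2-fold or more, with a median of -3.50. The 13 cartilage matrix genes stayed within 2-fold. Perichondrium, fibroblast and tendon markers also differed: 7 of the 13 above the floor were lower by 2-fold or more with columnar and hypertrophic cells, none was higher by that much, and their summed signal was 81069 on the columnar/hypertrophic array and 144510 on the round array. The widest differences on this list were those of Cdh11 (13.9-fold lower) and Postn (12.2-fold lower), while Lum (1.13-fold) and Twist2 (1.35-fold) were higher. The other Cdh11 probe set gave a log2 difference of -1.55. The tendon gene Tnmd was at least 3.06-fold lower. The tendon factor Scx and the fibroblast genes Thy1 and Dpt were under the floor on both arrays. The part of this list in the differences below was not tested. Of the lists for other cells, 1 of 9 endothelial, 4 of 10 macrophage and osteoclast, 0 of 7 lymphocyte, 0 of 4 blood, 3 of 9 skeletal muscle and 3 of 6 osteoblast genes passed the floor. In bulk samples, fewer cells of a type and less RNA per cell cannot be told apart.

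More forkhead genes were lower than higher with columnar and hypertrophic chondrocytes, by a margin over all genes that depended on the setting. Lower by 2-fold or more with columnar and hypertrophic cells were 5 of the 21 measured genes, Foxp1, Foxp2, Foxp4, Foxo3 and Foxn3, against 6.33% of all 11682 genes above the floor. Higher by 2-fold or more was 1 gene, Foxo4, against 4.3% of all genes. The remaining 15 were within 2-fold. By any amount, 16 of the 21 were lower and 5 higher, so that 76.2% were lower, against 54.9% of all measured genes. Among the 16 lower genes, 5 passed the floor on the round array alone and could only come out lower. The 16 also take in Foxa2, Foxa3, Foxj3 and Foxm1, whose direction depended on the scaling or the probe set. Without these genes 12 of 17 were lower, with those 5 still among the 12. The 17 also hold Foxd1, which gave 0.03 with lowess centring, and Foxk2, which had 1 probe set at -0.05. With equal medians 13 of 20 (65%) were lower, against 33.1% of all genes. Without a floor 23 of 37 (62.2%) were lower, against 57.4% of all genes. Leaving out Foxa2, Foxa3, Foxj3 and Foxm1 as well gave 19 of 33 (57.6%), close to the share of all genes. By the second brightest probe set 6 of 11 (54.5%) were lower, against 51.8% of all genes. The median log2 difference was -0.44 for the forkhead genes and -0.05 for all measured genes. Scaling the arrays to equal medians moved the median of all genes by 0.27, and the counts were then 4 higher and 3 lower forkhead genes, beside 943 higher and 413 lower among all genes in place of 502 and 740. Relative to all genes the forkhead median was -0.41 under that scaling and -0.39 under the deposited one, but -0.19 with the mean of probe sets and -0.05 without a floor. The mean of probe sets takes in those under the floor on both arrays, which enter as no difference.

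**Figure D1:**
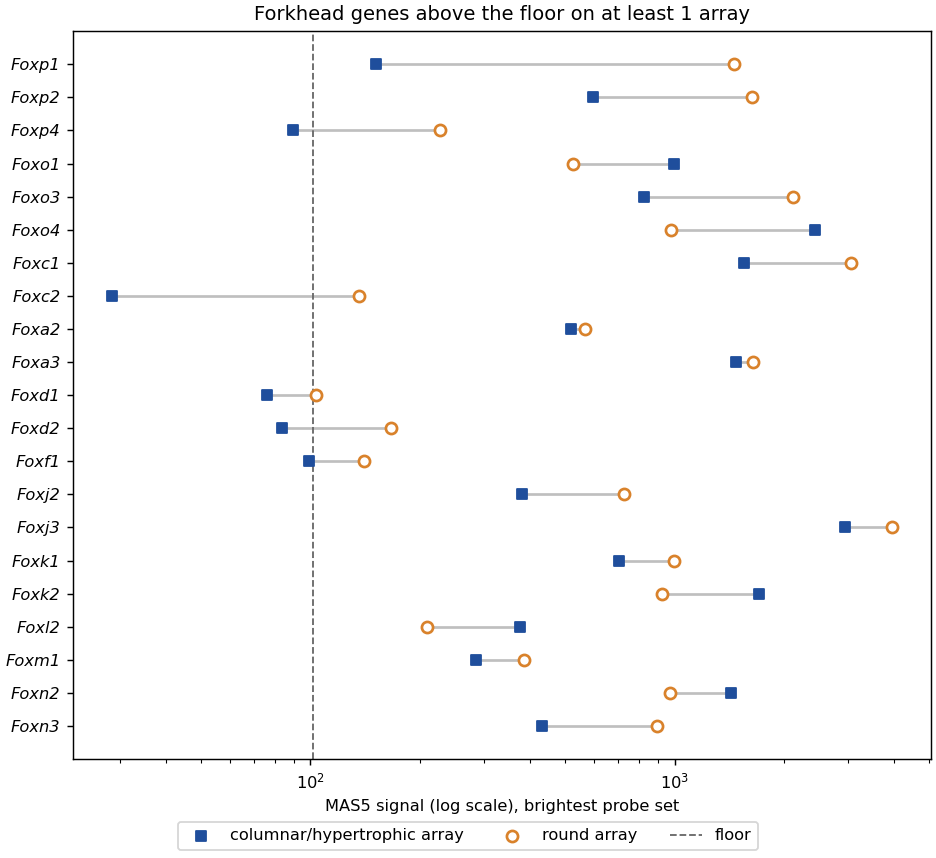
MAS5 signal of the brightest probe set (log axis) for each of the 21 forkhead genes above the floor. Squares are the columnar/hypertrophic array, circles the round array, and the dashed line is the floor of 101; the square lies left of the circle for 16 genes.

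**Figure D2:**
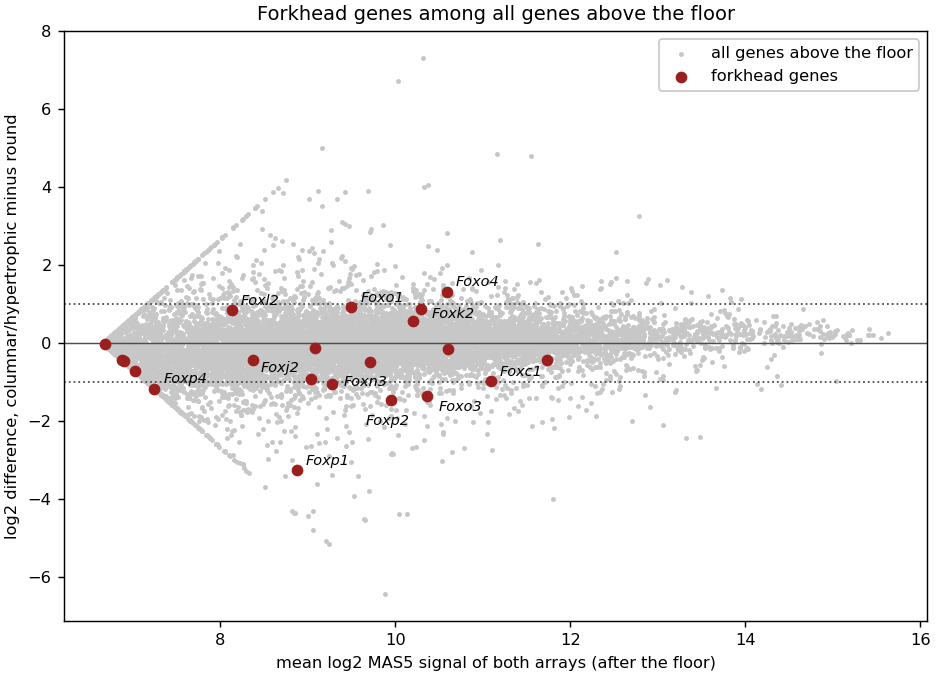
Log2 difference, columnar/hypertrophic minus round, against the mean log2 signal of both arrays, for all 11682 genes above the floor (grey) and the 21 forkhead genes (red). Dotted lines mark 2-fold; 1 forkhead gene lies above them and 5 lie below.

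All 3 measured genes of the FOXP class were lower with columnar and hypertrophic cells. Foxp1 encodes a repressor studied in lymphoid, neural and skeletal tissue, and its brightest probe set read 151 on the columnar/hypertrophic array and 1454 on the round array. This was 9.62-fold lower with columnar and hypertrophic cells, a log2 difference of -3.27. All 8 Foxp1 probe sets passed the floor and all 8 were at least 2-fold lower, from at least 2.62-fold to 9.62-fold. Of 433 genes with at least 5 probe sets above the floor, 3 (0.693%) had all of them at least 2-fold lower, namely Foxp1, Runx1t1 and Tcf4, while 78 (18%) had all of them lower by any amount.

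Foxp2, known for its role in vocal motor circuits and also expressed in developing lung and skeleton, read 598 on the columnar/hypertrophic array and 1629 on the round array. The log2 difference was -1.45, and all 6 probe sets were lower, from -0.87 to -1.45, with 5 of them past 2-fold. Foxp4 read 89.8 on the columnar/hypertrophic array, which is below the floor, and 227 on the round array. It was at least 2.24-fold lower by this probe set, but a second read 119 and 171 on the same arrays, a log2 difference of -0.52. Foxp3, the regulatory T cell factor, read 94.8 on the columnar/hypertrophic array and 95 on the round array, both below the floor. Across the class, all 16 probe sets above the floor were lower on the columnar/hypertrophic array, 14 of them by 2-fold or more, against 5.97% of all probe sets above the floor. These 16 are repeated readings of Foxp1, Foxp2 and Foxp4 on 1 array per group, not separate members. Several of them are bounds. The direction of Foxp1, Foxp2 and Foxp4 was the same under every scaling tried, although Foxp4 came within 2-fold with equal medians (-0.91) and quantile normalization (-0.93). Foxp4 was also within 2-fold with the 99th percentile floor (-0.63), the mean of probe sets (-0.56) and the second brightest probe set (-0.52). The mean takes in a further Foxp4 probe set, under the floor on both arrays, which enters as no difference.

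**Figure D3:**
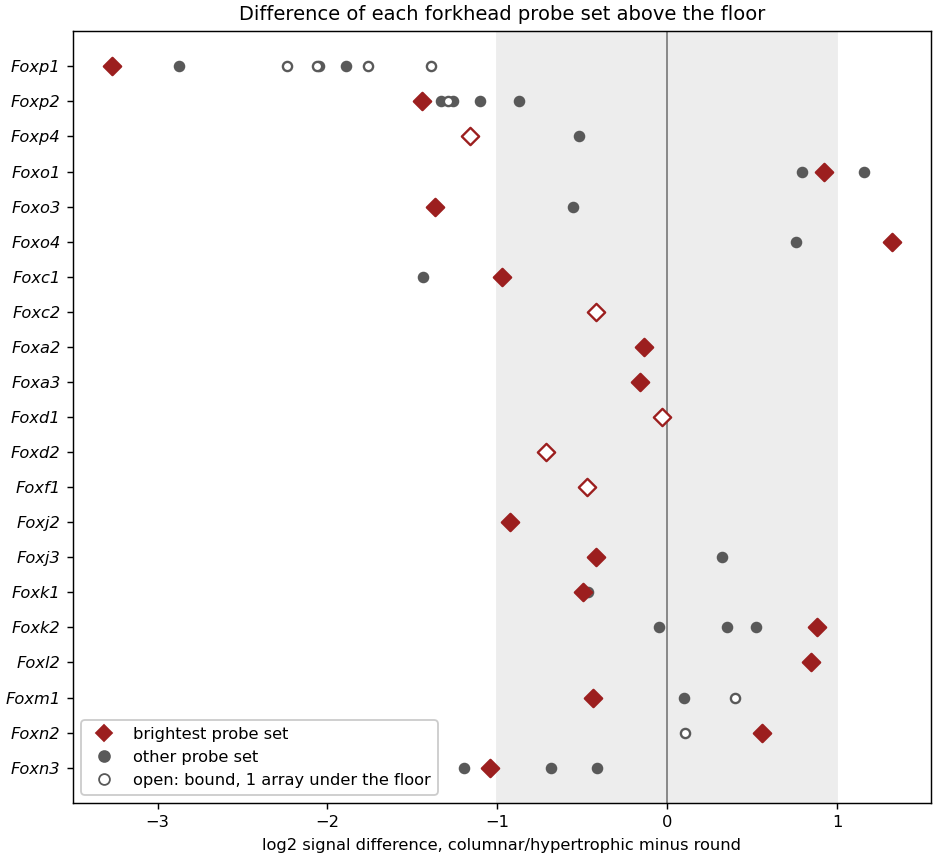
Log2 difference, columnar/hypertrophic minus round, of each forkhead probe set above the floor, by gene. Diamonds are the brightest probe set, circles the others, open symbols are bounds, and grey spans 2-fold either way; all 16 FOXP points lie left of 0.

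Promoter windows of 300 bases, 250 before and 50 after a RefSeq start on GRCm38.p6, were found for 24 of the 37 genes. The 3 windows of Foxp1 are shown because this gene had the widest difference, and those of Foxo1 and Foxo3 because these relatives differed in opposite directions. Capitals mark a match to a searched word.

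Foxp1, chr6:99520944-99521243, minus strand: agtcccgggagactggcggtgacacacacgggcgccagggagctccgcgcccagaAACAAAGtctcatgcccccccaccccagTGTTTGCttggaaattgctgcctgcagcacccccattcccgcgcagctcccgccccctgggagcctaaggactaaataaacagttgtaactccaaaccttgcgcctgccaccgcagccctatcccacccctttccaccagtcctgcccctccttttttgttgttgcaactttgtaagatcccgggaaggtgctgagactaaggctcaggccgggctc
Foxp1, chr6:99266466-99266765, minus strand: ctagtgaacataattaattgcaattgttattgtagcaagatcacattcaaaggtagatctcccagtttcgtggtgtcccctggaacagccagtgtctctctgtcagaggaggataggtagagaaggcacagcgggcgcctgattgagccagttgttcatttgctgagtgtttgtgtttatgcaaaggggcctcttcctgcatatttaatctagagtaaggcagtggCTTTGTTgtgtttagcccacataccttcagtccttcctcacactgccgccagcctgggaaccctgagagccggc
Foxp1, chr6:99028249-99028548, minus strand: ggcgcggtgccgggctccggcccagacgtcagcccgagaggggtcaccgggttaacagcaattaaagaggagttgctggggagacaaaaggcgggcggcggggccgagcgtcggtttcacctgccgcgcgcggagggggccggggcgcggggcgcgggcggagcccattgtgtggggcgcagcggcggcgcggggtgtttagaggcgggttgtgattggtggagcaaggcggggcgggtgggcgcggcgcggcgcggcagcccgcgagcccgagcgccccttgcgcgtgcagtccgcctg
Foxo1, chr3:52268087-52268386, plus strand: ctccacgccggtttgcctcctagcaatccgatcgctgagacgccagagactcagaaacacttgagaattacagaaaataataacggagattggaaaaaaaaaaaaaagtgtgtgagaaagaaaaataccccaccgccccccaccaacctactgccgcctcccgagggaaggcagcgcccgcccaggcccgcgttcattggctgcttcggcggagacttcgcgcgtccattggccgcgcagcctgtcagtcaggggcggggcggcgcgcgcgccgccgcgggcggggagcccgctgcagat
Foxo3, chr10:42276646-42276945, minus strand: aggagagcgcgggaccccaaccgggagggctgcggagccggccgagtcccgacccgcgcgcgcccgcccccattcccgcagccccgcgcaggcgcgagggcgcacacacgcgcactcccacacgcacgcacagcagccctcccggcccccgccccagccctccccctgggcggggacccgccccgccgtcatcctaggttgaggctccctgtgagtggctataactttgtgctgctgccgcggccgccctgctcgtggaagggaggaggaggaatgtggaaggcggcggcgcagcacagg

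Of 5 words searched on both strands, 3 were forkhead words. TGTTTAC was in 1 of 29 member windows, TATTTAC in 0 and TGTTTGC in 2, so that 10.3% held at least 1, against 11.2% of 32851 windows in the table. The other words were added after the forkhead result had been seen. The RUNX word TGTGGTT was in 0 of 29, against 5.27% of all windows, and the SOX word CTTTGTT was in 4 (13.8%), against 5.85%. In Foxp1 the window that starts at 99520944 held AACAAAG 195 bases and TGTTTGC 167 bases before the start, and the window that starts at 99266466 held CTTTGTT 24 bases before it. The Foxp1 window that starts at 99028249 and those of Foxo1 and Foxo3 held none. Member windows had a median GC content of 63%, against 52.7% of all windows, and these matches are a description of letters only.

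The 3 measured FOXO genes did not move together. Foxo4 read 2435 on the columnar/hypertrophic array and 975 on the round array, a log2 difference of 1.32, and its second probe set gave 0.76. Foxo1 read 996 and 525 on the same arrays, a difference of 0.92, and its 3 measured probe sets lay between 0.79 and 1.16. Foxo3 read 822 on the columnar/hypertrophic array and 2119 on the round array. Foxo3 was thus lower where Foxo1 and Foxo4 were higher, with -1.37 by its brightest probe set, -0.55 by the second and -0.64 by the mean of probe sets. That mean takes in a further Foxo3 probe set, under the floor on both arrays, which enters as no difference. Equal medians carried Foxo1 past 2-fold, at 1.20, and left Foxo3, at -1.09, and Foxo4 past it on their own sides.

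Genes upstream of FOXO differed little as a list. Of 21 measured, 1 was higher by 2-fold or more with columnar and hypertrophic cells and 1 lower. Over all genes above the floor the shares were 4.3% and 6.33%, and the median log2 difference of the list was 0.17. The higher gene was Sgk1, a kinase that phosphorylates FOXO proteins, with 639 on the columnar/hypertrophic array and 217 on the round array. The lower gene was Pik3r1, the regulatory subunit of PI3-kinase, with 432 and 1126 on the same arrays. Of 26 measured FOXO targets, 2 were higher and 4 lower by 2-fold or more, against 4.3% and 6.33% of all genes. The median of the targets was 0.09. The higher ones were the cell cycle inhibitor Cdkn1a, with a log2 difference of 1.41, and the stress protein gene Sesn2, with 1.35. The other Sesn2 probe set gave -0.69, so that the direction of Sesn2 was not settled. The lower ones were the growth arrest gene Gadd45a (-1.44), the thioredoxin inhibitor Txnip (-1.41), the apoptosis gene Bcl2l11 (-1.27) and the autophagy kinase Ulk1 (-1.14). Gadd45a read 103 on the columnar/hypertrophic array by its only probe set, just above the floor. The measured Bcl2l11 probe sets ran from -1.27 to -0.31. FOXO target genes thus lay on both sides, and the muscle ligases Fbxo32 and Trim63 were under the floor on both arrays. With equal medians the lower targets numbered 2, since Bcl2l11 (-0.99) and Ulk1 (-0.86) came within 2-fold, and Cited2, a transcriptional coregulator, passed it at 1.06.

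Foxa2 and Foxa3 differed by less than the spread between probe sets. Foxa2 read 518 on the columnar/hypertrophic array and 569 on the round array, a log2 difference of -0.14. Foxa3 read 1470 and 1640 on the same arrays, a difference of -0.16. With equal medians both turned to the other side of 0, at 0.14 for Foxa2 and 0.12 for Foxa3, so that no direction is given. Foxa1 was under the floor on both arrays. Of 9 measured genes on a list of FOXA-linked and hypertrophic genes, 8 were higher by 2-fold or more with columnar and hypertrophic cells. None was lower, the median was 3.51, and over all genes 4.3% were higher and 6.33% lower. Col10a1, the type X collagen gene of hypertrophic cartilage, read 10818 on the columnar/hypertrophic array and 24.2, below the floor, on the round array, at least 107-fold higher. Panx3, a channel gene of hypertrophic cells, was at least 159-fold higher. Ihh, which sets the pace of hypertrophy, read 2153 and 143 on the same arrays. The transcription factor genes Runx3 and Sp7 gave log2 differences of 3.89 and 3.51, but the other Runx3 probe set gave 0.55. This list overlaps the hypertrophic zone markers used to check the samples.

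Among the mesenchymal classes, Foxc1 was lower with columnar and hypertrophic cells by both its probe sets. It read 1554 on the columnar/hypertrophic array and 3051 on the round array, 1.96-fold lower, just inside the 2-fold limit. Its second probe set gave -1.44, and it passed 2-fold with quantile normalization (-1.03), lowess centring (-1.04) and the mean of probe sets (-1.20). Of the other members of these classes, 4 passed the floor, on the round array alone. Foxc2 read 28.6 on the columnar/hypertrophic array and 136 on the round array, at least 1.34-fold lower. Foxf1, Foxd2 and Foxd1 read 98.97, 83.4 and 75.98 on the columnar/hypertrophic array, against 140, 166 and 104 on the round array. Foxd1 passed the floor of 101 by little, and its difference went from -0.03 to 0.03 with lowess centring. In the genome Foxc2 and Foxf1 lie on chromosome 8 with Foxl1, which was under the floor, and Foxc1 lies on chromosome 13 beside Foxf2 and Foxq1, also under the floor. Of 9 measured genes that act with these classes, 3 were higher by 2-fold or more (Ihh and the hedgehog response genes Ptch1, 1.21, and Gli1, 1.15) and 2 lower (Gli3, -1.12, and Bmp4, at least 2.49-fold). Over all genes above the floor 4.3% were higher and 6.33% lower by as much. With equal medians Gli3 came within 2-fold, at -0.84. Gli2, a hedgehog effector, gave -0.72. The joint lubricant gene Prg4 was at least 27.8-fold lower, with 45.2 on the columnar/hypertrophic array and 2821 on the round array. Ihh and Prg4 were also among the markers used to check the samples.

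Members of the other classes were within 2-fold under the deposited scaling, except Foxn3. Foxn3, a checkpoint repressor, read 433 on the columnar/hypertrophic array and 894 on the round array, a log2 difference of -1.05, and all 4 probe sets were lower, from -0.41 to -1.20. It came within 2-fold with equal medians (-0.77), quantile normalization (-0.98), the mean of probe sets (-0.83) and the second brightest probe set (-0.68). Foxn2 read 1429 and 970 on the same arrays, a difference of 0.56. The 2 genes of this class thus lay on opposite sides of 0, and Foxn1 and Foxn4 were under the floor. Foxk1 read 705 on the columnar/hypertrophic array and 993 on the round array, while Foxk2, its close relative, read 1705 and 926. Foxk1 gave -0.49 and Foxk2 0.88, with the 5 Foxk2 probe sets between -0.05 and 0.88. Both bind the SIN3 corepressor in mammalian cells, and neither Sin3a (0.13) nor Sin3b (0.40) differed by 2-fold.

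Foxj2 read 382 on the columnar/hypertrophic array and 725 on the round array, a log2 difference of -0.93. Foxj3 read 2946 and 3943, a difference of -0.42, but its second probe set gave 0.32. The direction of Foxj3 was therefore not settled. Foxj1, the master factor of motile cilia, was under the floor, and 2 of 7 ciliated epithelium genes passed it. Foxl2, best known in the ovary and in cartilage and eyelid development, read 375 on the columnar/hypertrophic array and 208 on the round array, a difference of 0.85. This rested on 1 probe set, since the other was under the floor, and passed 2-fold with equal medians (1.13) and quantile normalization (1.03).

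Foxm1, which drives genes of mitosis, read 284 on the columnar/hypertrophic array and 385 on the round array by its brightest probe set, a log2 difference of -0.44. A second gave 0.10 and another a bound of 0.40, so that the direction of Foxm1 was not settled. None of 17 measured FOXM1 targets differed by 2-fold, and their median was 0.18. The largest were Cdc20 (0.51) and Aurka (0.50), an activator of anaphase and a spindle kinase. None of 8 measured FOXP partners differed by 2-fold either, with a median of 0.16, although Gatad2a, a subunit of the NuRD corepressor, reached 1.01 with equal medians in place of 0.73. Of 9 measured partners of the FOXH1, FOXK and FOXJ proteins, 2 were lower by 2-fold or more, the TGF-beta mediator Smad3 (-1.34) and the cilium factor Rfx3 (-1.67). Beside these lists, 4.3% of all genes above the floor were higher and 6.33% lower by 2-fold or more.

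**Figure D4:**
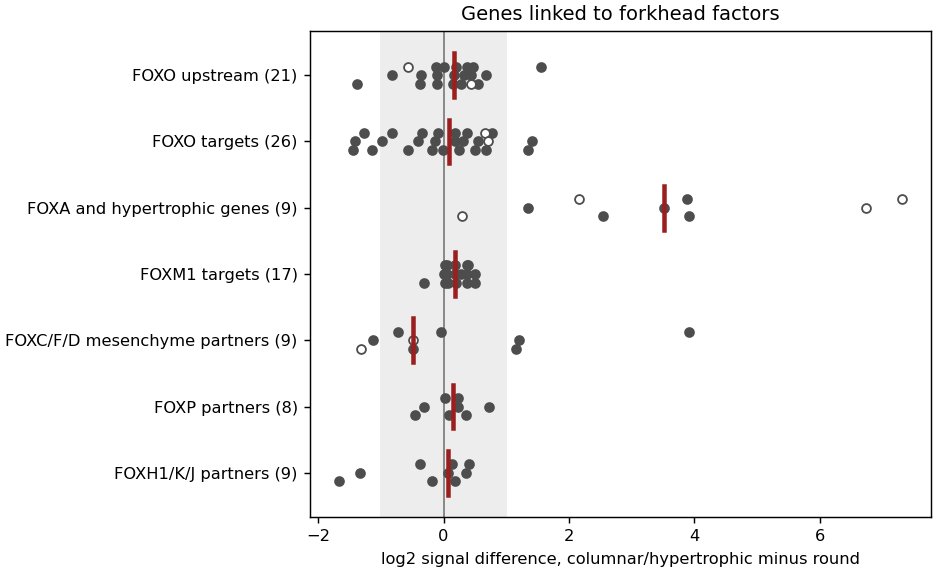
Log2 difference, columnar/hypertrophic minus round, of each measured gene on 7 lists linked to forkhead factors, with the number measured in brackets. Red bars are list medians, open circles are bounds and grey spans 2-fold either way; only the list of FOXA and hypertrophic genes has its median (3.51) outside it.

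The 16 forkhead genes under the floor on both arrays were Foxa1, Foxb1, Foxb2, Foxd3, Foxd4, Foxe3, Foxf2, Foxh1, Foxi1, Foxj1, Foxl1, Foxn1, Foxn4, Foxp3, Foxq1 and Foxs1. Their signals lay between 8.11 and 94.8 on the columnar/hypertrophic array and between 4.75 and 95 on the round array, and no difference is given for them. They include factors of thymic epithelium (Foxn1), neural crest (Foxd3) and lens (Foxe3).

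**Figure D5:**
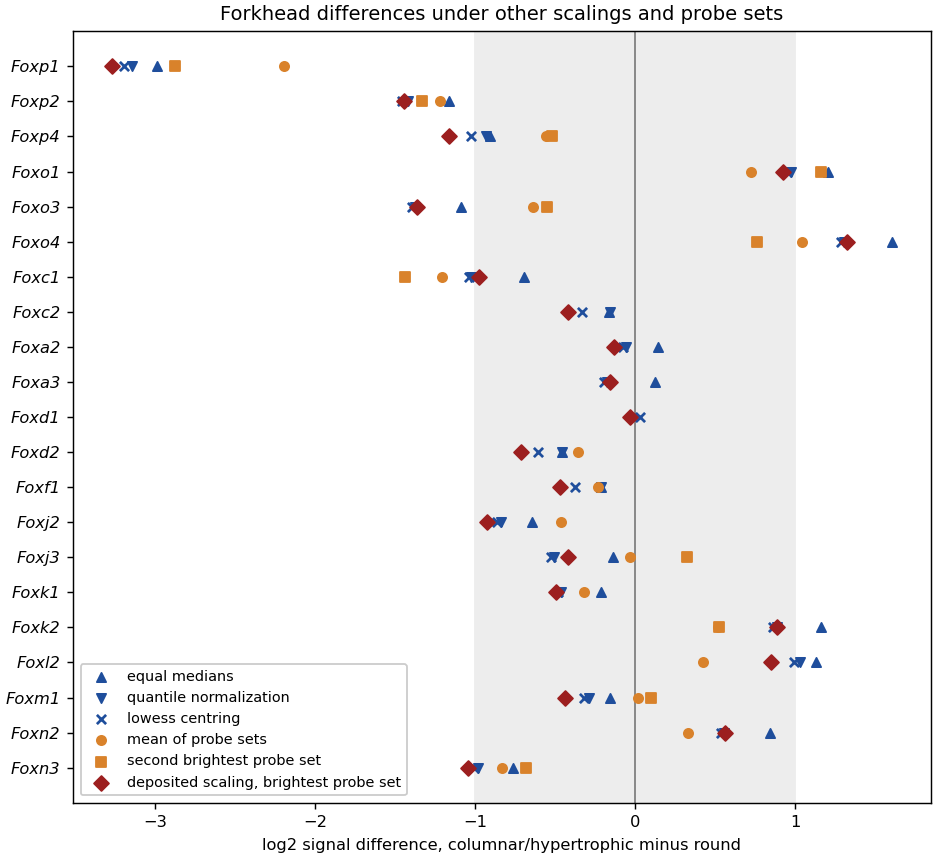
Log2 difference, columnar/hypertrophic minus round, of the 21 forkhead genes under the deposited scaling (diamonds), other scalings (blue) and other choices of probe set (orange); grey spans 2-fold either way. Foxp1 and Foxp2 stay left of the grey band under every choice drawn, while Foxa2 and Foxa3 lie on both sides of 0.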

How the data were processed

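Total RNA was hybridised to 1 array per group. The deposited values were intensity values on a linear scale, 1 per probe set, made with MAS5 by the authors (no version is named in the sources used here). The trimmed means were 500.003 on the columnar/hypertrophic array and 500.002 on the round array, without the lowest and highest 2 percent. The methods name robust multiarray analysis, which gives log values, so the deposited values came from another step. Of 45101 probe sets, 34958 named 1 gene, 932 several and 9211 none in the platform annotation, and those naming 1 gene were used. All 37 members matched RefSeq by Entrez ID. Runx2 and Pthlh were not analysed here.

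Differences were log2 of columnar/hypertrophic minus round after the floor, computed with Python 3.11.15, numpy 2.4.6, pandas 2.3.3 and statsmodels 0.14.6, and the steps were tested on simulated data. All members were named. Of each list of forkhead-linked genes, those past 2-fold were counted and up to 5 with the largest differences were named, with Gli2 and Prg4 by the same rule. Sin3a, Sin3b, Cited2 and Gatad2a were named after their values were seen. Of cell type lists, counts and sums were given, with some markers under the floor. Cdh11, Postn, Lum, Twist2 and Tnmd were named after their values were seen. The members and lists were chosen with earlier results of these data known. The floor was run with 2 definitions, exact receptor names (83 probe sets) and any symbol that begins with a receptor family name (96 probe sets, floor 99.2). Exact names were settled on after values from both had been seen. The RUNX and SOX words were likewise added to the motif search after the forkhead words had matched few windows. Alternatives were equal medians, quantile normalization, lowess centring (span 0.3), floors at the 90th and 99th percentiles, no floor with log2(signal + 1), the mean of probe sets, no _s_at or _x_at probe sets, the second brightest probe set, and 1.5-fold. The mean was over all probe sets of a gene, and those under the floor on both arrays entered as no difference. Calls lost with the mean can therefore come from such probe sets.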

Additional observations from a re-analysis of the deposited data

Results flagged for a closer look

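Probe sets that name a forkhead gene together with other genes were left out of the comparisons, and 2 of them gave a signal above the floor. The probe set shared by Gm38485 and Foxo3 read 80.6 on the columnar/hypertrophic array, which is below the floor, and 123 on the round array. The probe set shared by Tex52, Pebp1 and Foxm1 read 323 on the columnar/hypertrophic array and 335 on the round array. Which of the named genes gave these signals was not tested.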

How the results depend on the processing

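The number of forkhead genes higher by 2-fold or more with columnar and hypertrophic cells was 4 with equal medians (Foxk2, Foxl2, Foxo1 and Foxo4), 2 with quantile normalization, 4 without a floor, 2 without _s_at and _x_at probe sets and 4 at 1.5-fold, in place of 1. Without a floor, 3 of the 4 were genes under it on both arrays. The number lower by as much was 3 with equal medians, 3 with the mean of probe sets and 8 at 1.5-fold, in place of 5. The second brightest probe set could be used for 11 forkhead genes and gave 1 higher gene, Foxo1 and not Foxo4, and 3 lower genes, Foxc1, Foxp1 and Foxp2. Under the other settings run both counts stayed within 1.5 times. Foxp1 and Foxp2 were among the lower genes in every setting at 2-fold, while Foxn3, Foxo3, Foxp4 and Foxo4 each lost the call under at least 1. The floor with wider receptor names, added after seeing the data, left 21 forkhead genes above the floor, 1 higher and 5 lower, the same genes, with a median of -0.45 in place of -0.44. Of 195 values of single forkhead genes under the alternatives, 177 moved by less than the spread between probe sets, 18 by more, and 0 of those past 2-fold changed sign. Many of these values could not move by more. Other floors leave genes above them on both arrays unchanged, and equal medians shift such genes by a constant below that spread. Leaving out _s_at and _x_at probe sets changed Foxo1 alone. The count is thus not a measure of how firm the values are. Of 108 list counts under other scalings, 3 moved by over 1.5 times, all with equal medians: the lower FOXO targets (2), the lower mesenchyme partners (1) and the higher FOXP partners (1). The cause was not tested. No paired analysis was possible because the labels give no replicate numbers and there is 1 array per group. Genes near the floor have only bounds, and with 1 array per group no spread between animals was measured.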
